A study of Mus musculus with 24 samples.

Results

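The serpin family was followed through the maturation of cultured osteoblasts (OBs) from wild type (WT) mice and from mice heterozygous for the G610C substitution (Het). Members were the genes whose symbol is Serpin followed by a clade letter from a to i, a number and at most 1 further letter. *Serpinh1*, the collagen chaperone HSP47, was left out by the rule. This gave 63 of the 55335 genes counted, with 25 genes of clade A, 28 of clade B, 3 of clade E, 2 each of clades F and I, and 1 each of clades C, D and G. G610C replaces a glycine of the *Col1a2* procollagen chain with a cysteine in its triple helix, and gene counts do not show whether a library carries it. Cells were taken from parietal bones of pups in the first week of life, pooled over several pups of a genotype, and kept in osteogenic medium with ascorbate phosphate. Polyadenylated RNA was sequenced 8, 14 and 21 days after the cells were seeded, in 24 libraries that hold 4 replicates of each genotype at each time. The paper describes a pair of experiments with different litters, which differed in plating density and in oxygen during expansion. It gives 1 well per genotype and time in the first and 2 in the second. That is fewer than the 4 replicates here, so the description does not account for every library. The labels do not say which library belongs to which experiment. Wells of an experiment share a pool of pups, so the spread between libraries is not a spread between animals.

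Serpins are a large family of proteins with a shared fold. Most inhibit serine proteases by a suicide mechanism, in which the protease cleaves an exposed reactive loop, the serpin snaps into a more stable form and the protease stays trapped as a covalent complex. Many serpins with a signal peptide act outside the cell, among them inhibitors in clotting, fibrinolysis and complement. Most clade B serpins lack a classical signal peptide and protect the cytosol against proteases of lysosomes and granules. A few members, such as PEDF (*Serpinf1*), do not inhibit proteases. In bone, *Serpinf1* is known for its loss in a recessive form of osteogenesis imperfecta.

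Libraries held 17140202 to 59734231 counts, with a median of 48340136. The 6 libraries numbered replicate 1 were the shallowest (17140202 to 25825762), and they also stood apart in several serpin genes. Levels are given as relative quantity (RQ), which is the count of a gene per 1000 counts of the geometric mean of 4 housekeeping genes in that library (*Sdha*, *Mrfap1*, *Actb* and *Actg1*). All 9 osteoblast and osteocyte markers examined, among them *Col1a1*, *Runx2*, *Sp7* and *Ibsp*, were detected in every group, and their summed RQ was at least 32294 in each library. Markers of macrophages, cartilage and smooth muscle were detected as well. In such bulk samples, fewer cells of a type and less RNA per cell cannot be told apart. Serpin genes together held 0.218% to 0.388% of the counts of a library.

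The family was uneven. *Serpinf1* alone made up 46.4% to 81.0% of the summed serpin level per kb of transcript in each library. A mean of at least 50 counts was reached by 14 members, 34 averaged less than 1 count, and 15 had no count in any library. For these 15 the 24 libraries together allow up to 3 of 1027057570 counts, counting error only. The genes without counts were 7 members of clade A, 7 of clade B and 1 of clade I. In clade A, 16 of 25 members averaged less than 1 count, and in clade B 17 of 28. *Serpina3n* was the only clade A member with a mean of at least 50 counts.

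*Serpinf1* encodes PEDF, a secreted non-inhibitory serpin abundant in collagen-rich tissue. It was highest at every day, with 1024 ± 86.7 RQ per kb (SD, n = 8 libraries) at day 8, 1475 ± 240.2 at day 14 and 1827 ± 220.5 at day 21. Its lowest library (945 RQ per kb) lay far above the levels of *Serpine2*, *Serpinb6a* and *Serping1*, and the order of these depended on the day. At day 8 *Serpinb6a* had 72.3 ± 8.64 RQ per kb, *Serpine2* (protease nexin-1, an inhibitor of thrombin and urokinase) 48.8 ± 13.6 and *Serping1* 17.6 ± 3.64. At day 21 *Serpine2* had 161 ± 54.9 RQ per kb, *Serpinb6a* 100.1 ± 11.5 and *Serping1* 93.3 ± 29.3, and neighbours in this order overlapped in their ranges.

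**Figure D1:**
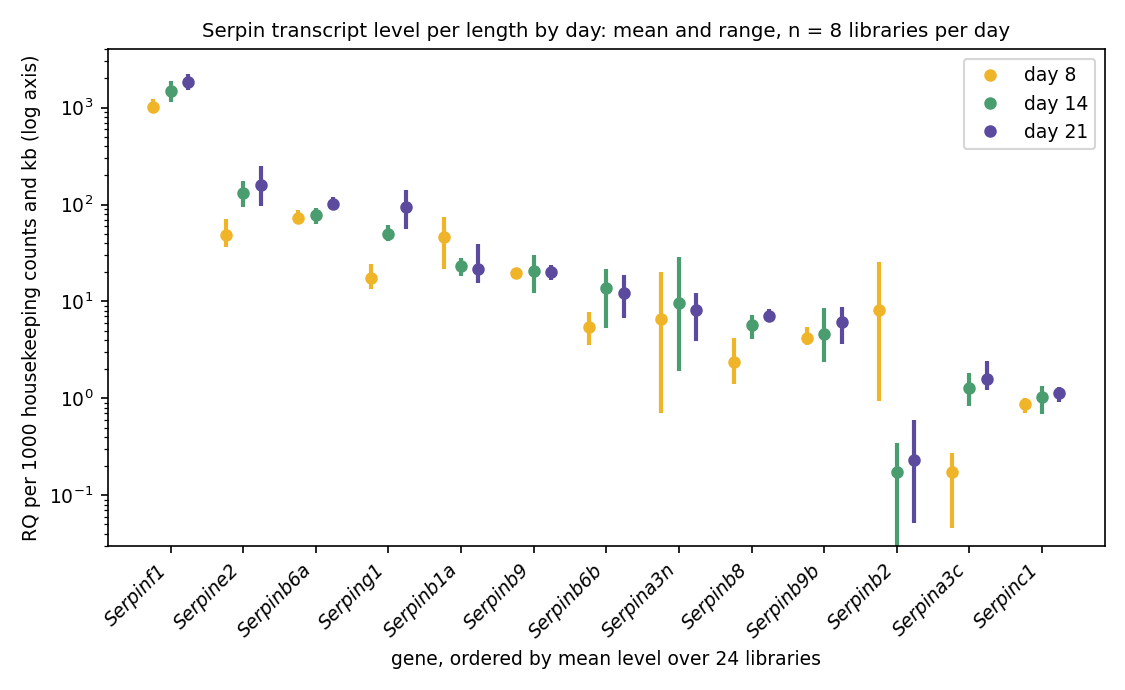
Transcript level per length of 13 serpin genes with a high mean, on a log axis in RQ per 1000 housekeeping counts and kb. Points are means and lines the range of the 8 libraries of a day, WT and Het together; *Serpinf1* lies above all others on each day, *Serpinb2* drops from 8.22 at day 8 to 0.173 at day 14, and its lowest line ends at a library with no count.

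Most members lie in clusters. On the mm10 assembly, 16 clade B genes were found on chromosome 13 between positions 32842092 and 34002794, 12 clade B genes on chromosome 1 between 106861173 and 107610484, and 23 clade A genes on chromosome 12 between 103614786 and 104414329. Neighbours did not share a level. *Serpinb2* (chromosome 1, 107511423 to 107535478) and *Serpinb8* (chromosome 1, 107590006 to 107610484) are 54528 bases apart on the plus strand, and over the days they went in opposite directions.

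The promoters of 4 members described below are shown. *Serpinb2* fell over the days and its neighbour *Serpinb8* rose. *Serpine2* and *Serpinb6b* were lower in Het, without overlap of the genotypes in replicates 2 to 4 at the later days. *Serpinb1a* and *Serpind1* did not overlap there either and are not shown. How many of all genes lacked such overlap was not counted, here or for the statements on overlap below. The printed windows run from 250 bases before to 50 bases after the RefSeq start on GRCm38.p6, in the direction of the gene. In chromosome coordinates, the RefSeq start of *Serpine2* lies at -2515 from its GENCODE M21 start, inside this minus-strand gene, and that of *Serpinb6b* at 52. *Serpinb2* has 2 RefSeq promoters, of which the one nearest the GENCODE start is printed. Capitals mark 3 motifs that were searched on both strands. These were the core promoter element TATAAA, the AP-1 site with the letters TGANTCA, and the GC box with the letters GGGCGG, whose copies may overlap.
*Serpinb2*, chr1:107511173-107511472, plus strand: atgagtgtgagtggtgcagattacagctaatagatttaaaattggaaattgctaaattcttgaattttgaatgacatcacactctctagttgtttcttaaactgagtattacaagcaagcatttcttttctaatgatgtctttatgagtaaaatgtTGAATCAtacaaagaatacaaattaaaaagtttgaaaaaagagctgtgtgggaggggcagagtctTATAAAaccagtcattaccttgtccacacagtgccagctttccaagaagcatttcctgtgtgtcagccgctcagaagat
*Serpinb8*, chr1:107589756-107590055, plus strand: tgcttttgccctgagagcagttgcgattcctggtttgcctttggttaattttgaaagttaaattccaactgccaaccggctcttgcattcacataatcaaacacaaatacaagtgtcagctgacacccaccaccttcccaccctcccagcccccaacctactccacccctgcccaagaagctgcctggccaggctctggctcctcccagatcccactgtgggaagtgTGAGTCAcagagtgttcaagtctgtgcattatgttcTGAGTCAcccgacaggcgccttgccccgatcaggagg
*Serpine2*, chr1:79858616-79858915, minus strand: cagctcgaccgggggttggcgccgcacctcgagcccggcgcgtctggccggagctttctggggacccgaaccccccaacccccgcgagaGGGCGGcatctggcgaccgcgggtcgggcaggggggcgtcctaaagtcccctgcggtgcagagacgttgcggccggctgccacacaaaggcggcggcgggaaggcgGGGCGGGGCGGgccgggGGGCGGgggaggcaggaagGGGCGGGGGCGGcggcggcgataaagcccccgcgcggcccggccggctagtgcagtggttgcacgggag
*Serpinb6b*, chr13:32965011-32965310, plus strand: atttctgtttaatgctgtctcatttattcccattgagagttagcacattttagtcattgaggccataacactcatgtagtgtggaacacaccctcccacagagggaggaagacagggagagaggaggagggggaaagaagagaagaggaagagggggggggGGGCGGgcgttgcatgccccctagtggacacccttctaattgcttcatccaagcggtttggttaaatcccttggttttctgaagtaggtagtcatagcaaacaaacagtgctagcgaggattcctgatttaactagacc

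In the window of *Serpinb2*, the TATA box begins at position -29 and the AP-1 site at -94 from the start. The window of *Serpinb8* holds AP-1 sites at -23 and 13. The window of *Serpine2* holds GC boxes at -161, -55, -50, -38, -19 and -13, and that of *Serpinb6b* one at -89. These matches are descriptions of the letters, not of bound sites. Of all 32851 promoters of this length, TATAAA was found in 13.6%, TGANTCA in 7.81% and GGGCGG in 35.7%. Of the 62 promoters that matched 53 members, 18 held TATAAA, 12 held TGANTCA and 7 held GGGCGG.

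The largest differences in the family were between days. Days 14 and 21 were compared with day 8 over both genotypes (16 against 8 libraries). Of 63 members, 20 had enough counts to be tested, and the adjusted p-values given throughout are from edgeR's quasi-likelihood test with Benjamini-Hochberg adjustment over all genes tested. At an adjusted p under 0.05, 9 members were higher and 3 lower at the later days, beside 58.3% of all 20434 genes tested that passed in either direction (40.9% higher, 17.4% lower). The median log2 fold change was 0.34 over the members tested and 0.16 over all genes. That last value depended on the scale. The median of all genes was -0.02 with TMM and 0.02 with the DESeq2 size factors, which both centre most genes near 0 by design, and -0.14 with the total count. The split of calls over all genes moved with the scale, from 8351 higher and 3560 lower to 5601 and 6692 (TMM), 6145 and 6049 (size factors) or 4339 and 8805 (total count). Changes of about the size of the median of all genes are read against it below. The paper states that DESeq2 and other common normalisations were not usable for its bulk data.

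Markers of several cell types moved with the days as well, beside 40.9% of all genes higher and 17.4% lower. All 9 macrophage markers were higher at days 14 and 21, and their summed RQ went from 217 to 924 at day 8 (median 404) to 1212 to 16061 later (median 5778). They were higher again at day 21 than at day 14, in 9 of 9, beside 13.3% of all genes. All 9 osteoblast and osteocyte markers were higher at the later days, with sums of 32294 to 89011 and 169980 to 340089. Of 5 cartilage markers, 4 were lower, and the sums went from 5210 to 32485 (median 19634) to 1077 to 21416 (median 4328). Of 5 osteoclast markers tested, 4 were higher, and of 4 smooth muscle markers 3 were lower. The part of these cells in the serpin changes over days was not tested.

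*Serpinb2* encodes PAI-2, an inhibitor of urokinase that stays largely inside the cell. It had the largest fall of the family. At day 8 its RQ was 59.9, 3.69, 2.62 and 15.1 in replicates 1 to 4 of WT, and 50.2, 2.23, 3.31 and 17.3 in those of Het. On day 14 the WT libraries had 0.822, 0.163, 0 and 0.320, and the Het libraries had 0.680, 0.372, 0.438 and 0.450. On day 21 the WT libraries had 0.473, 0.122, 0.159 and 0.197, and the Het libraries had 1.39, 0.270, 0.357 and 1.40. Every day 8 library was above every later one, and the day 8 libraries themselves spread widely, with replicate 1 highest in both genotypes and replicate 4 next. The fitted log2 fold change was -5.62 ± 0.61 (SE), adjusted p = 7.36e-08, and the gene was lower at the later day in 16 of 16 same-numbered comparisons. Here and below, each day 8 library was compared both with day 14 and with day 21, so the 16 comparisons are not independent. In counts, the day 8 libraries held 65 to 706 and the later ones 0 to 38. The library without a count, WT day 14 replicate 3, allows an RQ of up to 0.116. Of its transcript words of 50 bases, 10.4% are shared with the overlapping gene *Serpinb10*, which is itself a member.

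*Serpinb1a*, an inhibitor of neutrophil elastase and related proteases in the cytosol, also fell. Its RQ at day 8 was 50.2, 90.7, 92.6 and 74.7 for WT, and 76.0, 173, 160.4 and 133 for Het. The later libraries ran from 35.6 to 90.8 with a median of 47.4. The log2 fold change was -1.01 ± 0.14 (adjusted p = 1.56e-06, lower in 15 of 16). Replicate 1 was the lowest at day 8 in both genotypes, the reverse of *Serpinb2*, and its ratio of later to early means was 0.794 against 0.431 in replicates 2 to 4.

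Among the members that rose, *Serpine2* was the most abundant inhibitor. Its RQ went from 300.3 to 593 at day 8 (median 363) to 781 to 2057 at the later days (median 1215), without overlap. The log2 fold change was 1.56 ± 0.17 (adjusted p = 8e-08, higher in 16 of 16).

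*Serping1* encodes the C1 inhibitor, which restrains complement C1r, C1s and contact system proteases. It rose without overlap from 31.6 to 56.0 at day 8 to 98.5 to 331 later (log2 fold change 1.96 ± 0.15, adjusted p = 5.12e-10, 16 of 16). *Serpinf1* rose by less (log2 fold change 0.68 ± 0.08, adjusted p = 3.72e-07), from 2228 to 2878 at day 8 to 2704 to 5296 later. It was higher in 16 of 16 same-numbered comparisons, although WT replicate 1 at day 14 lay below Het replicate 3 at day 8. Both rises were larger than the shift in the median of all genes.

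In clade B, *Serpinb8* (an inhibitor of furin-like and other proteases) and *Serpinb6b* (a mouse paralogue of the cathepsin G inhibitor *Serpinb6a*) rose. The *Serpinb8* RQ went from 6.78 to 20.3 on day 8 to 19.6 to 39.8 later (log2 fold change 1.44 ± 0.19, adjusted p = 1.11e-06, 16 of 16). Its later to early ratio was 1.65 in replicate 1, whose day 8 libraries had the highest values (20.3 and 19.6), and 3.52 in replicates 2 to 4. *Serpinb6b* went from 7.98 to 17.8 to 12.1 to 48.4 later (1.21 ± 0.22, adjusted p = 8.55e-05, 16 of 16), with ratios of 3.95 in replicate 1 and 1.86 in replicates 2 to 4.

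*Serpinb6a* and *Serpinc1* (antithrombin, the main plasma inhibitor of thrombin) rose by 0.29 ± 0.07 and 0.31 ± 0.09 on the log2 scale (adjusted p = 0.00143 and 0.00433). These rises were within reach of the scaling. With the total count as scale, *Serpinb6a* had a log2 fold change of -0.02 (adjusted p = 0.83) and *Serpinc1* one of 0.01 (adjusted p = 0.956). *Serpinc1* passed with none of the 3 other scales, and *Serpinb6a* passed with the size factors and not with TMM. Exons of *Serpinb6a* overlap those of *Nqo2*, *Ripk1* and *1110046J04Rik* over 1587 of 5409 bases, and those of *Serpinc1* overlap *Zbtb37* over 2942 of 8546 bases, on the opposite strand in each case. Reads of these stretches cannot be told apart without strand, and the strand setting is not given in the sources used here.

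*Serpina3c* and *Serpina12*, chosen for mention after their values were seen because they had few counts, also rose. *Serpina3c* had 3 to 15 counts per library at day 8 and 26 to 104 later (log2 fold change 3.13 ± 0.20, adjusted p = 1.91e-11, RQ 0.386 ± 0.166 against 3.19 ± 0.826). *Serpina12* (vaspin, an adipokine) had 4 to 28 counts at day 8 and 11 to 80 later (1.68 ± 0.39, adjusted p = 0.000797).

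Among abundant members that did not pass, *Serpinb9*, the granzyme B inhibitor, had the tightest values, with 68.7 ± 4.44 RQ at day 8 and 71.6 ± 12.8 later. Its log2 fold change was 0.05, with a 95% interval from -0.13 to 0.24, but with the total count as scale it passed as lower (-0.25, adjusted p = 0.018). *Serpinb9b*, its paralogue, had 14.0 ± 1.82 and 17.9 ± 6.97 (0.33, interval -0.08 to 0.73). *Serpini1* (neuroserpin, an inhibitor of tissue plasminogen activator) ran from 2.05 to 4.42 and from 1.59 to 3.21 (-0.20, interval -0.49 to 0.09), but it passed as lower with TMM (-0.40, adjusted p = 0.0273), the DESeq2 size factors (-0.36, adjusted p = 0.0415) and the total count (-0.51, adjusted p = 0.00473). *Serpina3n*, an acute phase inhibitor of granzyme B and elastase, depended on replicate 1. Its RQ at day 8 was 41.3, 6.17, 4.72 and 15.1 for WT and 28.8, 1.89, 1.47 and 9.85 for Het, and its log2 fold change was 0.45 ± 0.52 (adjusted p = 0.491). Without replicate 1 it was 1.09 ± 0.38 (adjusted p = 0.0174, beside 70.1% of all genes).

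**Figure D2:**
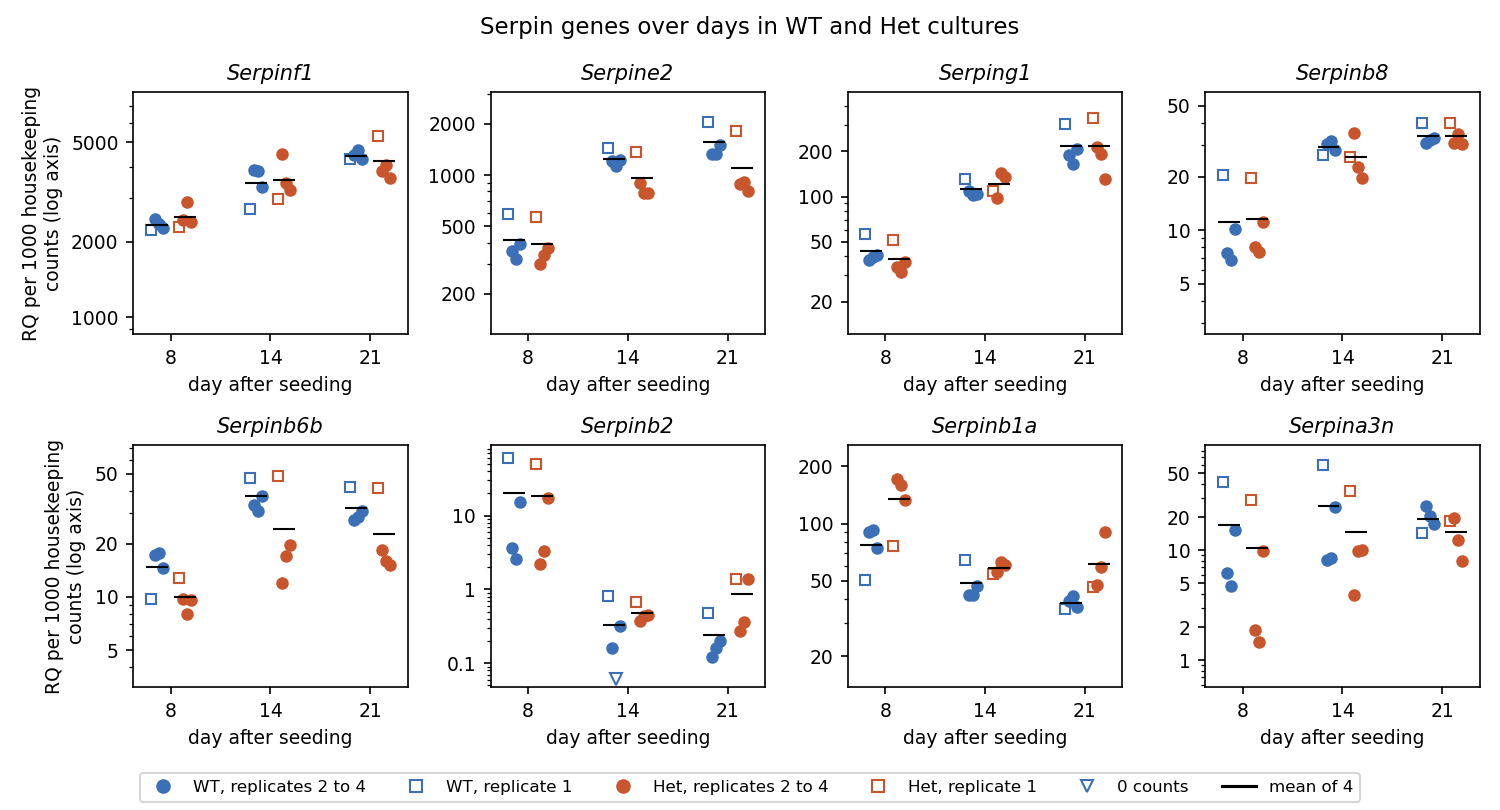
RQ per 1000 housekeeping counts, on log axes, of 8 serpin genes at days 8, 14 and 21 in WT (blue) and Het (orange), 4 libraries per group, with open squares for replicate 1, a black line at the mean and an open triangle for the library without a count. *Serpinf1*, *Serpine2*, *Serping1*, *Serpinb8* and *Serpinb6b* are higher after day 8 and *Serpinb2* and *Serpinb1a* lower, and replicate 1 stands apart in *Serpinb2*, *Serpinb8* and *Serpina3n* at day 8 and in *Serpine2* and *Serpinb6b* later.

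From day 14 to day 21 the changes were smaller. Of 20 members tested, 5 were higher and 0 lower at an adjusted p under 0.05, beside 19.3% of 19839 genes in either direction (13.3% higher, 5.94% lower). The median log2 fold change was 0.30 over the members tested and 0.06 over all genes. The split of calls over all genes again moved with the scale. It was 2646 higher and 1178 lower here, against 2259 and 2156 (TMM), 2293 and 2120 (size factors) or 2245 and 2025 (total count). With these scales, 3, 3 and 4 members passed as higher. *Serping1* rose again, from 98.5 to 145 RQ at day 14 (median 108) to 131 to 331 at day 21 (median 199.8), with a log2 fold change of 0.90 ± 0.16 (adjusted p = 0.00147, higher in 7 of 8 same-numbered comparisons). *Serpinb6a* rose from 419 ± 54.1 to 541 ± 62.4 RQ (0.37 ± 0.08, adjusted p = 0.00356, 7 of 8). Both kept their call without any single library, and *Serpinb6a* lost it without replicate 4 (adjusted p = 0.0529). In Het alone, 0 members passed, and in WT alone 2, beside 0.374% and 14.8% of all genes.

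*Serpinf1* (0.31 ± 0.10, adjusted p = 0.0445) and *Serpinb8* (0.31 ± 0.10, adjusted p = 0.0488) were at the edge. *Serpinf1* lost its call without any of 12 of the 16 libraries (adjusted p up to 0.0874), and *Serpinb8* without any of 13 (up to 0.0925). The libraries whose removal kept the call were Het day 14 replicate 2, Het day 21 replicates 2 and 4 and WT day 14 replicate 2 for *Serpinf1*, and Het day 14 replicate 2, WT day 14 replicate 3 and WT day 21 replicate 2 for *Serpinb8*. *Serpinb1c*, named after its values were seen, rose from 1 to 15 counts per library to 5 to 32 (1.31 ± 0.42, adjusted p = 0.0373), a call lost without any of 10 of the 16 libraries (adjusted p up to 0.0824) and kept without Het day 14 replicate 4, Het day 21 replicates 1 and 4, WT day 14 replicates 1 and 4 or WT day 21 replicate 3. *Serpinb9b* passed without replicate 1 (0.62, adjusted p = 0.0215, beside 28.9% of all genes), without WT day 14 replicate 1, or with replicate 1 as a covariate. *Serpinb2*, already near 0 at day 14, showed no further change beyond its spread (0.29, 95% interval -0.94 to 1.51).

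The study compares Het with WT cultures to find what the G610C substitution does to OBs. At days 14 and 21 (8 libraries per genotype), 3 of 20 tested members passed, with 2 higher and 1 lower in Het, beside 16.1% of 19839 genes in either direction (7.26% higher, 8.88% lower). The median log2 fold change was 0.03 over the members tested and -0.05 over all genes. The split of calls over all genes turned with the scale, from 1440 higher and 1762 lower to 2463 and 1485 (TMM), 2690 and 1380 (size factors) or 3289 and 1008 (total count). With each of these scales 3 members passed as higher and 0 as lower, since *Serpinb6a* passed (log2 fold change 0.21 to 0.25, adjusted p = 0.0127 to 0.0266) and *Serpind1* did not. With the replicate number as a block, 7 members passed (23.6% of all genes), and without replicate 1 there were 8 (39.4% of all genes). Without replicate 2, 3 or 4 there were 0 in each case, beside 1.63%, 1.29% and 0.702% of all genes. *Serpinf1* had 3926 ± 650.4 RQ in WT and 3862 ± 748 in Het (log2 fold change -0.02, 95% interval -0.23 to 0.20), and *Serping1* had 163.9 ± 69.7 and 169.5 ± 76.4 (0.07, interval -0.28 to 0.41).

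*Serpinb1a* was higher in Het. Its RQ at day 14 was 64.0, 42.2, 42.1 and 47.0 in replicates 1 to 4 of WT, and 54.4, 55.7, 62.7 and 60.4 in those of Het. On day 21 the WT libraries had 35.6, 39.0, 41.3 and 36.5, and the Het libraries had 46.3, 47.7, 58.8 and 90.8. Het was above WT in 7 of 8 same-numbered pairs, the exception being replicate 1 at day 14. Within replicates 2 to 4 the genotypes did not overlap, but this subset was taken after the values were seen. The share of all genes without overlap in it was not counted, and 39.4% of all genes passed without replicate 1. The log2 fold change was 0.47 ± 0.14 (adjusted p = 0.0278). The call was lost without WT day 14 replicate 2 or 3 (adjusted p = 0.0554 each) or WT day 21 replicate 2 (0.0545) or 4 (0.0583), and without the whole of replicate 2, 3 or 4 (0.129 to 0.187).

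*Serpina3g* (an inhibitor of lysosomal cathepsins) and *Serpind1* (heparin cofactor II, a thrombin inhibitor) also passed. Both have few counts and were singled out after their values were seen. *Serpina3g* RQ at days 14 and 21 ran from 0.159 to 1.74 in WT (3 to 30 counts) and from 0.670 to 3.24 in Het (9 to 84 counts). Its log2 fold change was 1.57 ± 0.44 (adjusted p = 0.0238, higher in Het in 7 of 8 pairs), and 15.5% of its 50-base words occur in paralogues such as *Serpina3h* and *Serpina3i*. It lost its call only without the whole of replicate 2, 3 or 4 (adjusted p = 0.119 to 0.198) and with day 14 alone (0.422), and it was not tested where a mean of at least 50 counts was asked for. *Serpind1* ran from 1.23 to 3.51 in WT (13 to 86 counts) and from 0.333 to 1.67 in Het (7 to 43 counts), with a log2 fold change of -0.92 ± 0.30 (adjusted p = 0.0489, lower in 8 of 8). This call was lost without any of 11 of the 16 libraries (adjusted p up to 0.0981) and kept without Het day 14 replicate 1 or 4, Het day 21 replicate 2, or WT day 14 or WT day 21 replicate 1. It was also lost with each other scale of the libraries (adjusted p = 0.0571 to 0.072).

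Under the replicate block 4 further members passed, namely *Serpine2* (-0.49 ± 0.09, adjusted p = 0.00226), *Serpinb6b* (-0.69 ± 0.14, adjusted p = 0.00402), *Serpina12* (-1.31 ± 0.24, adjusted p = 0.00252) and *Serpinb2* (1.42 ± 0.38, adjusted p = 0.0155). Without the block their adjusted p-values were 0.0876, 0.144, 0.0682 and 0.132. Leaving out Het day 14 replicate 1 or Het day 21 replicate 1 alone brought *Serpine2*, *Serpinb6b* and *Serpina12* past the threshold, and leaving out WT day 14 replicate 1 did so for *Serpinb2*. *Serpinb2* rested on 0 to 9 counts per library in WT and 5 to 38 in Het at these days. Its Het libraries were above WT in 7 of 8 pairs.

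*Serpine2* RQ at day 14 was 1437, 1206, 1128 and 1223 for WT, and 1360, 899, 784 and 781 for Het. On day 21 the WT libraries had 2057, 1321, 1333 and 1512, and the Het libraries had 1820, 882, 909 and 809. Het was lower in 8 of 8 pairs. In replicates 2 to 4 the genotypes did not overlap, with a ratio of Het to WT means of 0.656, whereas in replicate 1 the ratio was 0.910. The share of all genes without such overlap was not counted.

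*Serpinb6b* showed the clearest split between replicates. Its RQ at day 8 was 9.78, 17.2, 17.8 and 14.6 for WT, and 12.9, 9.72, 7.98 and 9.62 for Het. On day 14 the WT libraries had 47.4, 33.4, 30.7 and 37.5, and the Het libraries had 48.4, 12.1, 17.1 and 19.8. On day 21 the values were 42.0, 27.4, 28.3 and 30.9 for WT, and 41.3, 18.5, 15.97 and 15.2 for Het. In replicates 2 to 4, Het was below WT in 9 of 9 pairs, at 0.361 to 0.675 of the WT value, and the genotypes did not overlap within a day. The share of all genes that separate in this way was not counted. In replicate 1 the Het value was 1.32, 1.02 and 0.983 of the WT value at days 8, 14 and 21. A test added after the values were seen compared the Het effect in replicates 2 to 4 with that in replicate 1 over all 24 libraries. It gave a log2 difference of -1.02 ± 0.16 (adjusted p = 0.00129), the only one of 20 tested members to pass, beside 8.95% of 20434 genes. *Serpine2* missed (-0.32 ± 0.11, adjusted p = 0.085), as did *Serpinb1a* (0.44 ± 0.19, adjusted p = 0.180) and *Serpina3g* (1.47 ± 0.63, adjusted p = 0.168).

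**Figure D3:**
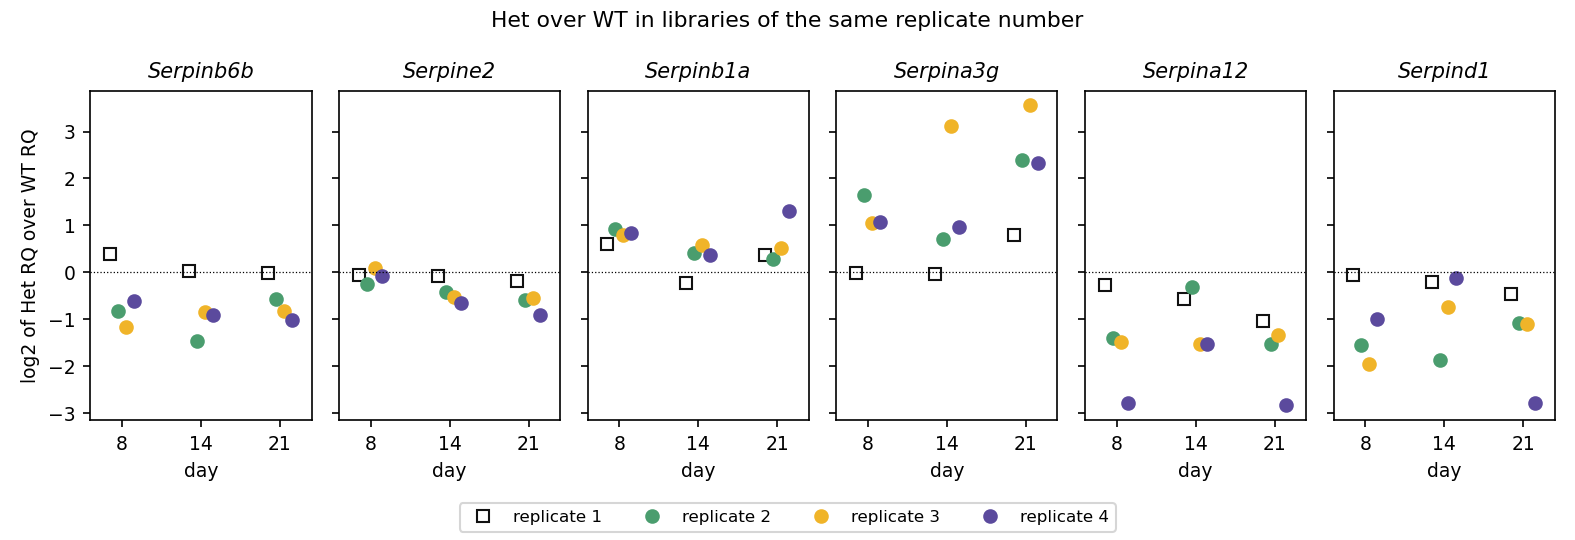
Log2 ratio of Het to WT RQ in libraries of the same day and replicate number for 6 serpin genes, with open squares for replicate 1 and filled circles for replicates 2, 3 and 4. For *Serpinb6b* all 9 circles lie below 0 and the squares close to or above 0, and for *Serpina3g* all 9 circles lie above 0.

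Markers of other cells moved with the genotype at these days, beside 7.26% of all genes higher in Het and 8.88% lower. The 9 macrophage markers had a summed RQ of 1212 to 6077 in WT and 2661 to 16061 in Het, 8 of them passed as higher in Het, and none was at 0. The 9 osteoblast and osteocyte markers summed to 183221 to 340089 in WT and 169980 to 284592 in Het, and 6 passed as lower. The 5 cartilage markers, of which none passed, summed to 3178 to 11931 in WT and 1077 to 2326 in Het in replicates 2 to 4, but to 7478 to 19923 and 7479 to 21416 in replicate 1. In the Het to WT difference the cartilage sum thus split between replicates as *Serpinb6b* did. Over the days the 2 differed, since the median cartilage sum fell from 19634 to 4328 and *Serpinb6b* rose (log2 fold change 1.21). The part of cartilage cells in the serpin differences was not tested. The part of macrophages was not tested either. Of 7 neutrophil and mast cell markers none had enough counts to be tested, and their summed RQ was at most 0.370 at these days. The 3 fibroblast markers summed to 6.88 to 11.7 in WT and 15.04 to 31.1 in Het in replicates 2 to 4, and the 4 endothelial markers to 1.85 to 3.12 and 3.47 to 5.13, without overlap and higher in Het, and 1 marker of each list passed as higher. In replicate 1 the fibroblast sums were 6.33 to 9.87 in WT and 2.83 to 4.65 in Het. Their part was not tested. Adipocyte and keratinocyte markers summed to at most 18.1 and 10.8 in any library, and the 6 osteoclast markers to at most 131 at these days.

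At day 8 (4 libraries per genotype), 0 of 19 tested members passed, beside 0% of 18222 genes, although 7 members and 1817 genes had an unadjusted p under 0.05. DESeq2's Wald test called 191 genes as higher and 240 as lower, and 0 members. *Serpinb1a* was higher in Het in 4 of 4 pairs with a log2 fold change of 0.81 ± 0.27 (adjusted p = 0.351). With the replicate block it passed (0.80 ± 0.06, adjusted p = 0.00883, beside 1.56% of all genes). Without Het day 8 replicate 1 alone it had an adjusted p of 0.0241. Without replicate 1, 7 members passed beside 18.7% of all genes. These were *Serpinb1a*, *Serpini1*, *Serpina3g* and *Serpinb6a* as higher and *Serpinb6b*, *Serpina12* and *Serpind1* as lower in Het. *Serpinb2* did not separate the genotypes at the day it was highest (-0.14, 95% interval -2.81 to 2.52), and its replicates differed widely at that day.

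The Het effect at days 14 and 21 was also tested against that at day 8. Of 20 members 0 passed with edgeR, with DESeq2 or with the replicate block, beside 0.171% of 20434 genes with edgeR (0.166% higher, 0.00489% lower) and 0.328% with the block, and 1 member (*Serpina3c*, log2 difference 1.00, adjusted p = 0.597) had an unadjusted p under 0.05. Without replicate 1, *Serpine2* passed (-0.53 ± 0.11, adjusted p = 0.0115, beside 4.72% of all genes). For *Serpinb2* the log2 difference was 1.51, with a 95% interval from -1.14 to 4.16, beside the wide spread of its day 8 replicates.

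**Figure D4:**
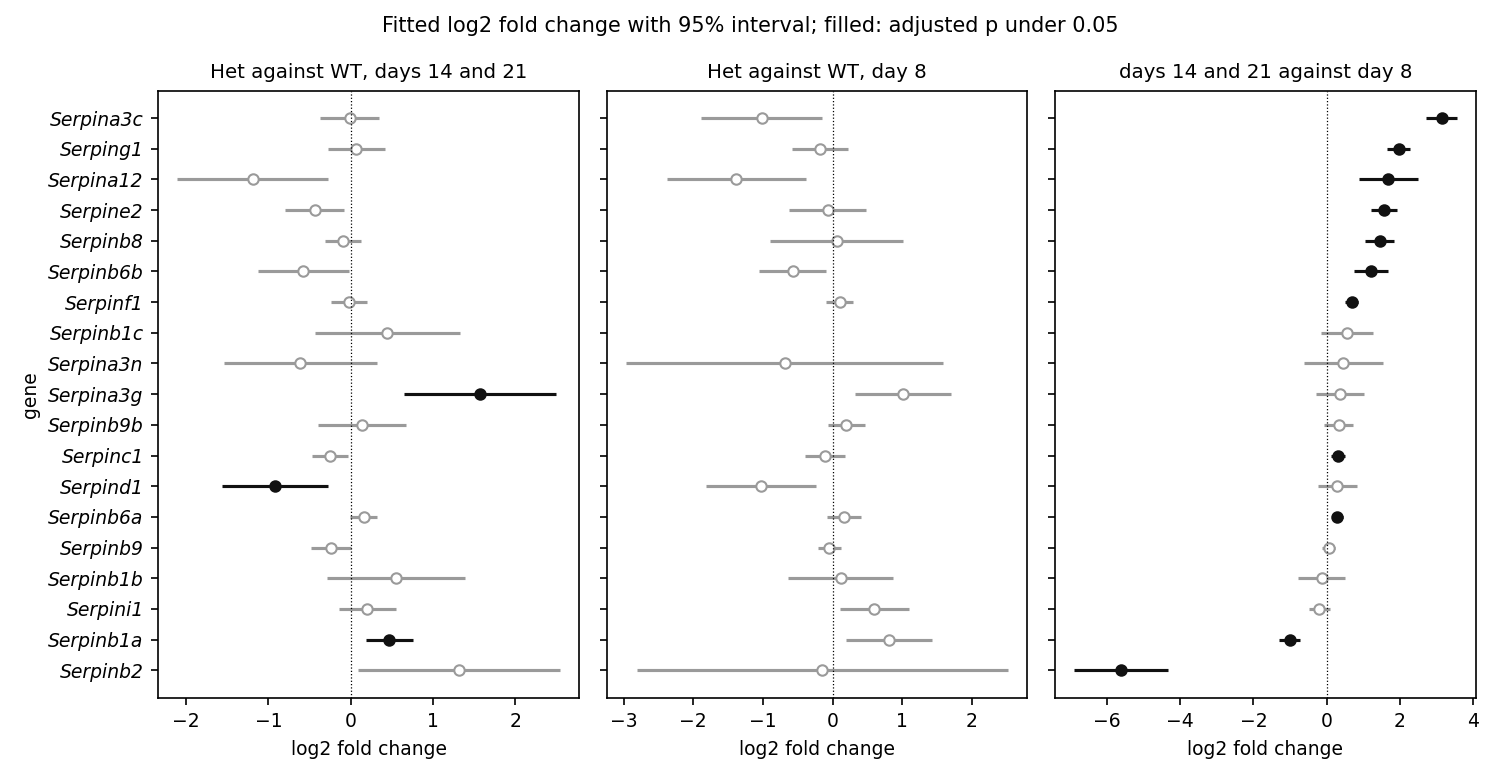
Fitted log2 fold changes with 95% intervals of 19 serpin genes, for Het against WT at days 14 and 21 (8 against 8 libraries), Het against WT at day 8 (4 against 4) and days 14 and 21 against day 8 (16 against 8); filled points have an adjusted p under 0.05. The filled points number 3 in the left panel, 0 in the middle and 11 in the right, and *Serpinb2* at -5.62 is the largest in the right panel. *Serpinb1c* was not tested at day 8 and has no point in the middle panel.

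The proteases and receptors that serpins act on were examined as lists, none of which was tested as a set. Their counts stand beside the shares of all genes. Over days, 40.9% of all genes passed as higher and 17.4% as lower. For Het against WT at days 14 and 21, 7.26% passed as higher and 8.88% as lower. Of 9 genes of plasminogen activation, 7 were tested, and 4 were higher and 2 lower at the later days. *Plat* (tissue plasminogen activator), a target of *Serpini1*, fell (log2 fold change -1.09 ± 0.13, adjusted p = 2.03e-07, lower in 16 of 16 comparisons), from 76.9 ± 21.3 to 36.4 ± 8.66 RQ. *Plau* (urokinase) rose as *Serpinb2* fell (1.06 ± 0.15, adjusted p = 2.33e-06, 16 of 16), from 60.8 ± 14.9 to 131.6 ± 47.1 RQ. *Plaur*, its receptor, had 62.1 ± 16.7 and 51.9 ± 7.21 RQ (-0.26 ± 0.11, adjusted p = 0.0613). In Het against WT at days 14 and 21, *Plau* (0.54 ± 0.17, adjusted p = 0.0447, 7 of 8 pairs) and *S100a10*, a plasminogen receptor subunit (0.47 ± 0.11, adjusted p = 0.0103), were higher, and 0 of 7 were lower.

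Of 16 complement genes, 14 were tested, and 10 were higher and 1 lower at the later days, when the C1 inhibitor gene *Serping1* was higher. The largest were *C1qc* (4.08 ± 0.28), *C1qb* (4.00 ± 0.28), *C1qa* (3.94 ± 0.28) and *C3* (3.81 ± 0.29), each higher in 16 of 16. *C1qa*, *C1qb*, *C1qc* and *Cfb* were also higher in Het at days 14 and 21 (1.18, 1.08, 1.04 and 0.68), among 5 of 14 that passed. Whether these differences exceed that of *Serping1* was not tested. *C1qa* is at the same time a macrophage marker. Of 8 clearance and PEDF receptors, 4 were higher and 2 lower at the later days. *Lrp1*, which clears serpin and protease complexes, rose by 0.48 ± 0.05 on the log2 scale (adjusted p = 8.44e-08), *Vldlr* by 3.30 ± 0.16, and *Pnpla2*, a PEDF-binding lipase, by 0.68 ± 0.07 (adjusted p = 3.26e-08). In Het at days 14 and 21, 2 of 8 were higher and 2 lower. *Pnpla2* was higher in Het in 8 of 8 pairs (0.30 ± 0.07, adjusted p = 0.0112), with 28.3 ± 3.44 RQ in WT and 34.9 ± 4.65 in Het, as was the laminin receptor gene *Rpsa* (0.25 ± 0.08, adjusted p = 0.0467). *Lrp6* (-0.26 ± 0.07, adjusted p = 0.0144) and *Vldlr* (-0.23 ± 0.07, adjusted p = 0.0417) were lower.

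Of 19 coagulation genes, 9 were tested over days, with 4 higher and 2 lower. *F13a1* (3.86 ± 0.25) and *Thbd* (0.94 ± 0.13) rose and *Procr* fell (-0.72 ± 0.13), and 0 of 8 passed in Het against WT. Of 29 serine protease genes, 17 were tested and 10 rose and 2 fell over days, led by *Pcsk6* (3.14 ± 0.12) and *Fap* (2.48 ± 0.27). In Het, 2 of 15 were lower, *Fap* (-0.80 ± 0.27, adjusted p = 0.0499) and *Furin* (-0.23 ± 0.05, adjusted p = 0.0105). Of 23 other extracellular protease inhibitors, 18 were tested, with 8 higher and 5 lower over days. *Spock1* (6.50 ± 0.30) and *Spint2* (2.81 ± 0.20) rose and *Itih2* fell (-1.60 ± 0.22), and 0 of 16 passed in Het against WT.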

How the data were processed

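Per library, the authors deposited 1 table of unnormalised read counts over genes, 24 in all. The submitters' processing notes name cutadapt 2.5, STAR 2.73a, Subread featureCounts 1.6.4 and mm10, and neither the strand setting nor the treatment of multi-mapping reads is given in the sources used here. No molecular identifiers were used, so limits from counts cover counting error only.

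Groups came from the genotype and day in the labels. Members and gene lists were chosen with earlier results of these data known. Named members had an adjusted p under 0.05 in at least 1 comparison and a mean of at least 50 counts, with *Serpinb2* and *Serpinf1* always included, and other members of that mean were named by level. The values of 1 member are included in counts over the family but are not reported here. From the other lists, *Plat*, *Plau*, *Plaur*, *Lrp1* and *Pnpla2* and up to 4 called genes per list and comparison were named.

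Counts were scaled to the geometric mean of *Actg1*, *Actb*, *Mrfap1* and *Sdha*, filtered with filterByExpr and fitted in edgeR 4.0.16 (R 4.3.3, limma 3.58.1) with glmQLFit and glmQLFTest, with day or genotype as covariate and Benjamini-Hochberg adjustment over all genes. The SE is the log2 fold change divided by the square root of F. Alternatives were the replicate number as block, TMM, DESeq2 1.42.0 (Wald test or size factors), the total count, other filters, single days or genotypes and libraries left out. Same-numbered WT and Het libraries of a day deviated together (12 correlations of 0.192 to 0.713 over 14890 genes), so the numbers were taken to pair the genotypes, on this evidence of the data alone. Within a day too, not every library correlated best with its own number. At day 8, WT replicate 3 had 0.485 with Het replicate 3 and 0.509 with Het replicate 2. Different numbers ran from -0.669 to 0.571. Those with replicate 1 were at most -0.209, and those among replicates 2 to 4 had a median of 0.245, so the pairing mostly separates replicate 1. Replicates differed by more than sampling noise in every one of 36 pairs (chi-square of at least 5.14 per degree of freedom).

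The procedure was tested on simulated data, with the same dispersion for all genes and housekeeping counts without noise. The changed genes had a mean of at least 50 counts, and no difference between replicate numbers was simulated. For Het against WT at day 8 it recovered 75% of 100 genes changed by a log2 of 1, and for the difference of effects 43%. The real replicates differed between numbers, so these shares do not give the power in the real libraries. Lengths and coordinates were from GENCODE M21, in which 62 of 63 members matched, and promoters from RefSeq (GRCm38.p6).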

Additional observations from a re-analysis of the deposited data

Results flagged for a closer look

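In 120 groups of 4 libraries (20 serpin genes in 6 groups), 9 had a library whose gap to the next, as a share of the group's range, was above Dixon's 95% critical value, where chance gives about 1 in 20. In 4 of them it was replicate 1. These were *Serpine2* in Het at day 21 (highest, gap 0.901), *Serpinb6b* in Het at day 21 (highest, 0.873), *Serpina12* in Het at day 21 (highest, 0.851) and *Serping1* in WT at day 8 (highest, 0.836).

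The others were *Serpini1* in WT at day 14 (replicate 4 highest, 0.863), *Serpina3g* in WT at day 21 (replicate 3 lowest, 0.866), *Serpinb1c* in Het at day 8 (replicate 3 lowest, 0.841) and at day 14 (replicate 4 highest, 0.935), and *Serpinb1b* in WT at day 8 (replicate 3 highest, 0.862). The flags of *Serpina3g*, *Serpinb1c* and *Serpinb1b* rest on few counts, as does that of *Serpina12* above.

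*Serpinb6b* differed between Het and WT by a log2 of -1.02 more in replicates 2 to 4 than in replicate 1 (SE 0.16, edgeR adjusted p = 0.00129), in a test chosen after the values were seen. It was the 1 member of 20 tested that passed, beside 8.95% of 20434 genes, so the family did not exceed that share.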

How the results depend on the processing

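For Het against WT at days 14 and 21, 3 serpin genes passed (16.1% of all genes), against 5 with DESeq2's Wald test (22.8%), 0 at day 14 alone (0.185%), 1 at day 21 alone (1.97%), 1 with a mean of at least 50 counts (21.1%), 8 with replicate 1 against 2 to 4 as covariate (25.5%), 7 with the replicate block (23.6%) and 0 to 8 without 1 library or replicate number. At day 8 the 0 became 1 with that covariate (3.86% of all genes) or the block (1.56%) and 0 to 7 with libraries left out, the 7 being without replicate 1. For the difference of effects the count was 0 to 1 with libraries left out, the 1 being without replicate 1. For days 14 and 21 against day 8 it was 12 to 13 with libraries left out. There the 9 higher and 3 lower became 7 and 5 with the total count, beside 21.4% higher and 43.4% lower of all genes. With no low-count filter they became 9 and 6, beside 22.6% higher and 9.89% lower of all genes. Leaving out the filter added *Serpinf2*, *Serpina6* and *Serpina16* as lower, named after their values were seen. For day 21 against day 14 it was 3 with the DESeq2 size factors or TMM (22.2% of all genes each), 0 in Het alone (0.374%), 2 in WT alone (14.8%), 2 with no low-count filter (8.6%) and 2 to 5 with libraries left out. *Serpinb6a* at the later days against day 8 turned to -0.016 with the total count as scale. Over the named genes and all alternatives, 766 values kept their direction and side of the threshold, 97 lost and 31 gained a call, and 1 reversed. Between days of a genotype, 22 of 24 same-numbered correlations were over 0.1 (lowest -0.0371). Their median was 0.432, beside 0.473 between the genotypes of a day. In both cases not every library correlated best with its own number. The correlations thus do not clearly set the 2 cases apart, and between days the numbers were not taken to pair libraries. The block moved the calls from 12 to 13 for the later days against day 8, adding *Serpina3n* (0.88, adjusted p = 0.0449, beside 64.2% of all genes), and from 5 to 6 for day 21 against day 14, adding *Serpinb9b* (0.46, adjusted p = 0.0282, beside 23.1%). It changed no other serpin call than these and those given for the genotypes. The cause of these changes was not tested.

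Members with few counts limit the rest, since 43 of 63 could not be tested. The replicates share pools of pups, and the experiment of each library is not in the labels.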
